A study of Homo sapiens with 10 samples.

Results

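A set of 9 genes that act on plasminogen, on the extracellular matrix and on the start of blood clotting were followed across TPC-1 cells exposed to the RET inhibitor BLU667. TPC-1 is a papillary thyroid carcinoma line that carries the CCDC6-RET fusion, and BLU667 (pralsetinib) is a selective inhibitor of the RET kinase. The 9 genes were taken by name from the 58735 genes of the deposited FPKM table (FPKM scales reads to gene length and library depth): PLAU, PLAUR, PLAT, F3, MMP2, MMP14, TIMP1, TIMP2 and TIMP3. There were 5 groups of 2 libraries. BR8, BR10 and BR16 were separate colonies, each derived from TPC-1 and kept in 5 µM BLU667. Their sample labels give more than 50 days of exposure and the study's design text more than 5 months. Parental cells received 5 µM BLU667 for 24 h (the BLU667 group) or the solvent DMSO for 24 h (the DMSO group). All cells carried the same fusion. Each colony is 1 derived line, and the 2 libraries of a colony are 2 biological replicates of that line per the design text. It does not say whether these were separate cultures, so p-values measure the spread between these libraries. The comparisons ask what changes within a day of inhibition, what differs after adaptation, and how far the colonies resemble one another.

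In GRCh38, PLAU (ENSG00000122861) lies on the plus strand at chr10:73909177-73917497, PLAUR (ENSG00000011422) on the minus strand at chr19:43646095-43670547 and PLAT (ENSG00000104368) on the minus strand at chr8:42175233-42207724. F3 (ENSG00000117525) lies on the minus strand at chr1:94529225-94541800, MMP2 (ENSG00000087245) on the plus strand at chr16:55389700-55506691 and MMP14 (ENSG00000157227) on the plus strand at chr14:22836557-22849027. TIMP1 (ENSG00000102265) lies on the plus strand at chrX:47582313-47586789, TIMP2 (ENSG00000035862) on the minus strand at chr17:78852977-78925387 and TIMP3 (ENSG00000100234) on the plus strand at chr22:32801701-32863043. The libraries do not keep strand, so reads from overlapping genes cannot be told apart. Such partners were low: C10orf55, antisense to PLAU, was listed at 0.275 to 1.42 FPKM, and RN7SL368P, within PLAUR, at 0 to 1.12 FPKM. Of the partners of the other members, none exceeded 0.313 FPKM in any library.

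The 10 libraries held 15243703 to 21904245 reads in genes. Across genes, GC content correlated with the difference between DMSO replicate 1 and 2 (Spearman 0.62) and with that of BR8 from BR16 (-0.61). Transcript GC was 58.9% for MMP14, 57.9% for TIMP1, 56.5% for MMP2 and 43.7% for F3, against a median of 47.4% over the tested genes. Of 8 thyroid markers, PAX8, HHEX and FOXE1 passed the filter on low values, while TSHR, NKX2-1 and SLC5A5 were at most 0.0311 FPKM. Of 7 epithelial markers, CLDN1, TJP1, KRT8 and KRT18 passed, while KRT19, EPCAM and CDH1 did not and were at most 0.316 FPKM. None of the 5 endothelial, 6 immune or 5 erythroid markers passed.

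Plasminogen circulates as an inactive precursor, and the urokinase (PLAU) and tissue-type (PLAT) activators cut it to plasmin, a protease that digests fibrin and parts of the matrix. PLAUR anchors urokinase at the cell surface. MMP14 is a membrane-bound metalloprotease that, with TIMP2 as a bridge, cleaves the MMP2 precursor, a gelatinase that digests basement membrane collagen; TIMP1, TIMP2 and TIMP3 inhibit metalloproteases. Tissue factor, the product of F3, starts clotting by binding factor VIIa. In many tumour types these genes are studied for their part in invasion, and FOS and JUN family proteins (AP-1) and ETS factors downstream of the MAP kinase pathway are known regulators of several of them.

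RefSeq start-site windows were at hand for 6 of the 9 genes (7 windows, since PLAU has 2), and the 250 bases before each start were searched on both strands for TGAGTCA, the core AP-1 element, for TGANTCA and for TGAGTAA. The 3 genes below are shown because their windows hold a match, in capitals. The F3 window lies at chr1:94541760-94542009 and the PLAUR window at chr19:43670170-43670419, both on the minus strand. The TIMP1 window lies at chrX:47582186-47582435 on the plus strand. All are in GRCh38.p14 and printed 5′ to 3′. The RefSeq starts differ from the gene bounds given above. The PLAUR window lies wholly within those bounds, and the F3 and TIMP1 windows lie partly within theirs.
F3: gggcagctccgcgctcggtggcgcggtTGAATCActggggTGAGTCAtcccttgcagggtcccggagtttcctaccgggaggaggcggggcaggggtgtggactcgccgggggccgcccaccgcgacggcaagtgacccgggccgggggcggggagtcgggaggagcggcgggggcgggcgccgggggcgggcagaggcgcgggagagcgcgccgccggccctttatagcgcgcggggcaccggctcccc
PLAUR: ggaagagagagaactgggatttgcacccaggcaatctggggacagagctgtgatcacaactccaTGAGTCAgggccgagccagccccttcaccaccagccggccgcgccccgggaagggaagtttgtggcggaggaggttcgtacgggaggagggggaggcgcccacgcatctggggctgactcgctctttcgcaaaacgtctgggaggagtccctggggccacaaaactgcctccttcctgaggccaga
TIMP1: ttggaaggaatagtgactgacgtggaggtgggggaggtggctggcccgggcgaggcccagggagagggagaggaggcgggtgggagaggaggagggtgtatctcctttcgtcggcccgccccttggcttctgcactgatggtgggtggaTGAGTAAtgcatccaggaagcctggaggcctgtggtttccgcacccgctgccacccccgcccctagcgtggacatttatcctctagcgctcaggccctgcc
Counted from the start, F3 had TGAATCA at -223 to -217 and TGAGTCA at -210 to -204, PLAUR had TGAGTCA at -186 to -180 and TIMP1 had TGAGTAA at -101 to -95. None of the 3 elements was in the windows of PLAU, MMP14 or TIMP3. Of 35116 windows of this length, 4.20% held TGAGTCA, 6.57% held TGANTCA (which includes every TGAGTCA) and 2.21% held TGAGTAA. A match describes these letters only.

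After 24 h of BLU667 the activator system and TIMP1 were lower and MMP2 and TIMP2 were higher. The filter of at least 1 FPKM in at least 2 libraries kept 7 of the 9 genes, without PLAT and TIMP3, among the 13927 genes that limma tested on log2(FPKM + 1). Of the 7, 2 were higher in BLU667 than in DMSO, 4 were lower and 1 was not called at an adjusted p under 0.05. Over all tested genes 29.0% were higher and 31.2% lower. The median change of the 7 was -0.55, against -0.01 over all tested genes. In bulk libraries, fewer cells with an RNA and less of it per cell cannot be told apart.

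Urokinase was the most abundant of the 9 RNAs per length in DMSO cells and in every colony. PLAU was 129.0 and 127.0 FPKM in BR8, 164.3 and 181.1 in BR10, 189.1 and 181.6 in BR16, 52.2 and 58.9 in BLU667 and 175.9 and 172.7 in DMSO. Both BLU667 libraries lay below all others. PLAU averaged 55.6 ± 4.71 FPKM in BLU667 and 174.3 ± 2.29 FPKM in DMSO (SD, n = 2 each), 3.14-fold lower after 24 h (log2 change -1.63 ± 0.09 SE, adjusted p = 1.73e-06). The adapted colonies as a mean were higher than BLU667 (1.51 ± 0.07, adjusted p = 1.01e-06) and not called against DMSO (-0.12 ± 0.07, adjusted p = 0.187). In descending order the groups were BR16, DMSO, BR10, BR8 and BLU667. BR10 and DMSO overlapped, and BR16 and DMSO did not differ by the test (0.09, adjusted p = 0.440). BR8 was lower than DMSO (-0.44, adjusted p = 0.00325).

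The urokinase receptor moved with the same signs after 24 h. PLAUR was 11.7 and 12.5 FPKM in BR8, 12.1 and 13.5 in BR10, 9.95 and 10.8 in BR16, 2.57 and 2.96 in BLU667 and 11.1 and 9.26 in DMSO. Again both BLU667 libraries were the lowest, and DMSO overlapped BR16. PLAUR averaged 2.77 ± 0.27 FPKM in BLU667 and 10.2 ± 1.27 FPKM in DMSO (SD, n = 2 each), 3.67-fold lower (-1.56 ± 0.11, adjusted p = 6.69e-06). The colonies exceeded BLU667 by 1.76 ± 0.09 (adjusted p = 1.29e-06) and were not called against DMSO (0.19 ± 0.09, adjusted p = 0.103). That last difference was 0.31 without DMSO replicate 1, which made it a call (adjusted p = 0.0339), and 0.0755 without DMSO replicate 2 (adjusted p = 0.540). It was also called with each library's GC trend removed (0.21, adjusted p = 0.0162) and with quantile normalization (0.25, adjusted p = 0.0401). The ratio of PLAU to PLAUR FPKM within a library was 11.0 and 10.2 in BR8, 13.6 and 13.4 in BR10, 19.0 and 16.8 in BR16, 20.3 and 19.9 in BLU667 and 15.9 and 18.6 in DMSO.

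Tissue-type activator was near the floor, and PLAU made up 99.6% to 99.97% of the FPKM of the 2 activators together. PLAT had 13 and 21 reads in BR8 (0.112 and 0.188 FPKM), 23 and 42 reads in BR10 (0.215 and 0.280 FPKM), 8 and 7 reads in BR16 (0.0744 and 0.0596 FPKM), 12 and 11 reads in BLU667 (0.103 and 0.0956 FPKM) and 84 and 63 reads in DMSO (0.684 and 0.602 FPKM). Both DMSO libraries lay above all 8 exposed libraries. PLAT failed the filter. Without the filter, limma on log2(FPKM + 1) called it lower in BLU667 than in DMSO (-0.58 ± 0.06, adjusted p = 0.000533) and lower in the adapted colonies than in DMSO (-0.51 ± 0.05, adjusted p = 0.000592), on a scale where 1 FPKM exceeds every value of this gene. An alternative added after the data were seen, limma voom on recovered reads with at least 10 reads in 2 libraries, does not add 1 FPKM. There PLAT was lower in BLU667 than in DMSO (-2.65 ± 0.41, adjusted p = 3.07e-05) and lower in the adapted colonies than in DMSO (-2.22 ± 0.26, adjusted p = 2.13e-06). The mean of the colonies was not called against BLU667 (0.42 ± 0.42, adjusted p = 0.403). It joined BR10, which was higher than BLU667 (1.29, adjusted p = 0.0221), with BR8 (0.52, adjusted p = 0.383) and BR16 (-0.55, adjusted p = 0.433). In that fit the colonies differed by the F test (adjusted p = 0.0112), with BR10 above BR16 by 1.84 (adjusted p = 0.00694). Without the filter, on log2(FPKM + 1), neither the F test (adjusted p = 0.0879) nor BR10 against BLU667 (adjusted p = 0.0801) was called. PLAU in BR10 and BR16 was not called against DMSO, while PLAT was lower than DMSO in each colony, by -2.12 in BR8, -1.35 in BR10 and -3.20 in BR16 in the voom fit. Whether the 2 genes differ in this was not tested.

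**Figure D1:**
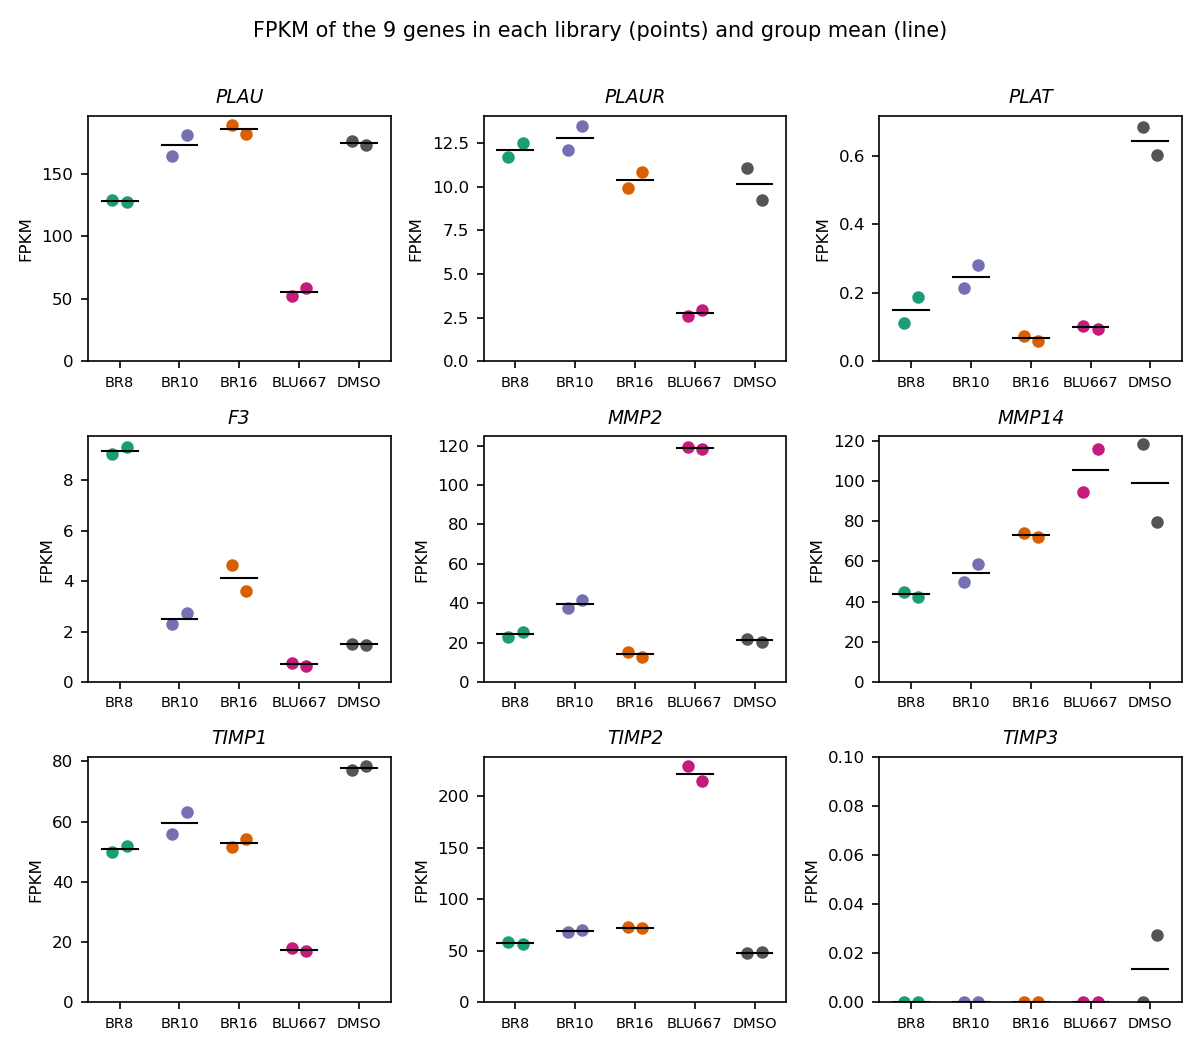
FPKM of each of the 9 genes in each library (points), with the mean of each group of 2 (line), on linear axes that start at 0 and differ by gene. BLU667 holds the lowest PLAU, PLAUR, F3 and TIMP1 and the highest MMP2 and TIMP2, and BR8 holds the highest F3.

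Tissue factor had the widest ratio between colony means among the 7 tested genes. F3 was 9.06 and 9.31 FPKM in BR8, 2.28 and 2.74 in BR10, 4.65 and 3.63 in BR16, 0.771 and 0.620 in BLU667 and 1.501 and 1.474 in DMSO. The groups did not overlap, in the order BR8, BR16, BR10, DMSO and BLU667, with every colony library above every parental library. F3 averaged 0.696 ± 0.106 FPKM in BLU667 and 1.49 ± 0.02 FPKM in DMSO (SD, n = 2 each), 2.14-fold lower (-0.55 ± 0.12, adjusted p = 0.00371). These are low levels, of 31 to 80 reads a library, where adding 1 FPKM shrinks a change: with 0.1 FPKM added the change was -1.003. The adapted mean was 3.55-fold above DMSO (1.19 ± 0.10, adjusted p = 2.77e-05) and above BLU667 (1.74 ± 0.10, adjusted p = 2.25e-06). Those SEs reflect libraries. With the 3 colony means as 3 replicates in limma, the difference from DMSO was not called (1.19 ± 0.43, adjusted p = 0.176). Against DMSO, BR8 was 6.18-fold higher (2.03 ± 0.12, adjusted p = 4.97e-06), BR16 2.78-fold higher (1.04, adjusted p = 0.000200) and BR10 1.69-fold higher (0.50 ± 0.12, adjusted p = 0.0110). The BR10 call was lost without BR10 replicate 2 (0.40, adjusted p = 0.0725).

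The gelatinase was higher after 24 h, while the colonies lay below BLU667 and on both sides of DMSO. MMP2 was 23.03 and 25.4 FPKM in BR8, 37.6 and 41.8 in BR10, 15.4 and 12.7 in BR16, 119.3 and 118.5 in BLU667 and 21.8 and 20.4 in DMSO. Both BLU667 libraries were above all others and the groups did not overlap. MMP2 averaged 118.9 ± 0.573 FPKM in BLU667 and 21.1 ± 0.987 FPKM in DMSO (SD, n = 2 each), 5.62-fold higher (2.44 ± 0.10, adjusted p = 5.40e-07). The adapted mean was lower than BLU667 (-2.27 ± 0.09, adjusted p = 3.34e-07) and not called against DMSO (0.17 ± 0.09, adjusted p = 0.140). That mean joined colonies of opposite sign: BR10 was 1.88-fold higher than DMSO (0.88 ± 0.10, adjusted p = 0.000416), BR16 was 1.504-fold lower (-0.56 ± 0.10, adjusted p = 0.00293) and BR8 was not called (0.19, adjusted p = 0.169). With each library's GC trend removed, BR8 was called higher (0.34, adjusted p = 0.0159). Without BR16 the adapted mean was higher than DMSO (0.53, adjusted p = 0.00161). MMP2 is also made by fibroblasts. Of 9 fibroblast markers 4 passed the filter (PDPN, PDGFRB, LUM and COL1A1), COL1A2 and DCN were at 0 reads in every library, and the summed FPKM of the list was 7.16 to 9.61 in BR8, 1.96 to 2.38 in BR10, 3.34 to 3.88 in BR16, 24.7 to 28.1 in BLU667 and 28.0 to 29.5 in DMSO.

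MMP14, the membrane-type protease, did not follow MMP2. MMP14 was 45.0 and 42.4 FPKM in BR8, 49.8 and 58.8 in BR10, 74.0 and 72.2 in BR16, 94.8 and 115.9 in BLU667 and 118.4 and 79.5 in DMSO. BLU667 and DMSO overlapped, and all 6 colony libraries were below all 4 parental ones. MMP14 averaged 105.3 ± 14.9 FPKM in BLU667 and 98.9 ± 27.5 FPKM in DMSO (SD, n = 2 each) and was not called (0.11 ± 0.18, adjusted p = 0.625, 95% interval -0.31 to 0.53). That value took either sign with a library left out: 0.39 (adjusted p = 0.0471) without DMSO replicate 1, -0.17 (adjusted p = 0.321) without DMSO replicate 2 and -0.03 (adjusted p = 0.918) without BLU667 replicate 2. The adapted mean was 1.73-fold below DMSO (-0.79 ± 0.15, adjusted p = 0.00276) and below BLU667 (-0.90 ± 0.15, adjusted p = 0.000938). Neither difference was called with the 3 colony means as 3 replicates (adjusted p = 0.178 and 0.0553). The change from DMSO was -0.50 without DMSO replicate 1 (adjusted p = 0.0157) and -1.07 without DMSO replicate 2 (adjusted p = 0.000705). Per colony against DMSO the change was -1.13 ± 0.18 in BR8 (adjusted p = 0.00114), -0.83 in BR10 (adjusted p = 0.00759) and -0.40 in BR16 (adjusted p = 0.104). The BR10 call was lost without BR10 replicate 1 (-0.71, adjusted p = 0.0585). The BR16 difference was called without DMSO replicate 2 (-0.69, adjusted p = 0.00848) and with each library's GC trend removed (-0.58, adjusted p = 0.00715).

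The ratio of the proteases changed with them. MMP2 over MMP14 within a library was 0.512 and 0.5997 in BR8, 0.754 and 0.711 in BR10, 0.208 and 0.176 in BR16, 1.26 and 1.02 in BLU667 and 0.184 and 0.257 in DMSO. BLU667 was the only group with more MMP2 than MMP14 per length, and BR16 overlapped DMSO.

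The inhibitors moved in opposite directions after 24 h. TIMP1 was 49.9 and 52.0 FPKM in BR8, 55.8 and 63.1 in BR10, 51.5 and 54.1 in BR16, 18.0 and 17.0 in BLU667 and 77.1 and 78.3 in DMSO. BLU667 was lowest, DMSO highest, and BR8 and BR16 overlapped between them. TIMP1 averaged 17.5 ± 0.708 FPKM in BLU667 and 77.7 ± 0.905 FPKM in DMSO (SD, n = 2 each), 4.44-fold lower (-2.09 ± 0.08, adjusted p = 3.64e-07). The adapted mean lay between, higher than BLU667 (1.58 ± 0.07, adjusted p = 6.06e-07) and 1.43-fold lower than DMSO (-0.51 ± 0.07, adjusted p = 0.000425). Colony means used as 3 replicates ended the call against DMSO (adjusted p = 0.150).

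TIMP2 was 59.0 and 57.1 FPKM in BR8, 68.2 and 70.0 in BR10, 72.8 and 71.9 in BR16, 229.2 and 215.3 in BLU667 and 48.0 and 48.9 in DMSO. Every exposed library was above both DMSO libraries, and BLU667 was far above the colonies. TIMP2 averaged 222.3 ± 9.86 FPKM in BLU667 and 48.5 ± 0.601 FPKM in DMSO (SD, n = 2 each), 4.59-fold higher (2.17 ± 0.07, adjusted p = 1.51e-07). The adapted mean was lower than BLU667 (-1.73 ± 0.06, adjusted p = 1.89e-07) and 1.37-fold higher than DMSO (0.44 ± 0.06, adjusted p = 0.000389). Here too the call against DMSO was lost with colony means as 3 replicates (adjusted p = 0.217).

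TIMP3 had 0 reads in 9 of the 10 libraries and 2 reads (0.0275 FPKM) in DMSO replicate 2. A count of 3 reads would be 0.0287 to 0.0412 FPKM in these libraries, the most that a count of 0 allows, for counting error only. TIMP3 failed the filter, and without the filter limma called it in no comparison (for BLU667 against DMSO adjusted p = 0.558).

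The exchange between the 2 detected inhibitors was visible inside each library, as a ratio that does not depend on the scaling of the library. TIMP2 made up 54.2% and 52.3% of the FPKM of the TIMP genes in BR8, 55.0% and 52.6% in BR10, 58.5% and 57.1% in BR16, 92.7% and 92.7% in BLU667 and 38.4% and 38.4% in DMSO. The colonies lay between both parental groups without overlap. The summed FPKM was 108.9 and 109.1 in BR8, 124.0 and 133.1 in BR10, 124.3 and 125.9 in BR16, 247.2 and 232.3 in BLU667 and 125.1 and 127.3 in DMSO. Only the BLU667 sum stood apart upward, and BR10 and BR16 overlapped DMSO. MMP14 over TIMP2, the pair that acts on the MMP2 precursor, was 0.762 and 0.743 in BR8, 0.731 and 0.840 in BR10, 1.02 and 1.01 in BR16, 0.414 and 0.538 in BLU667 and 2.47 and 1.63 in DMSO.

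**Figure D2:**
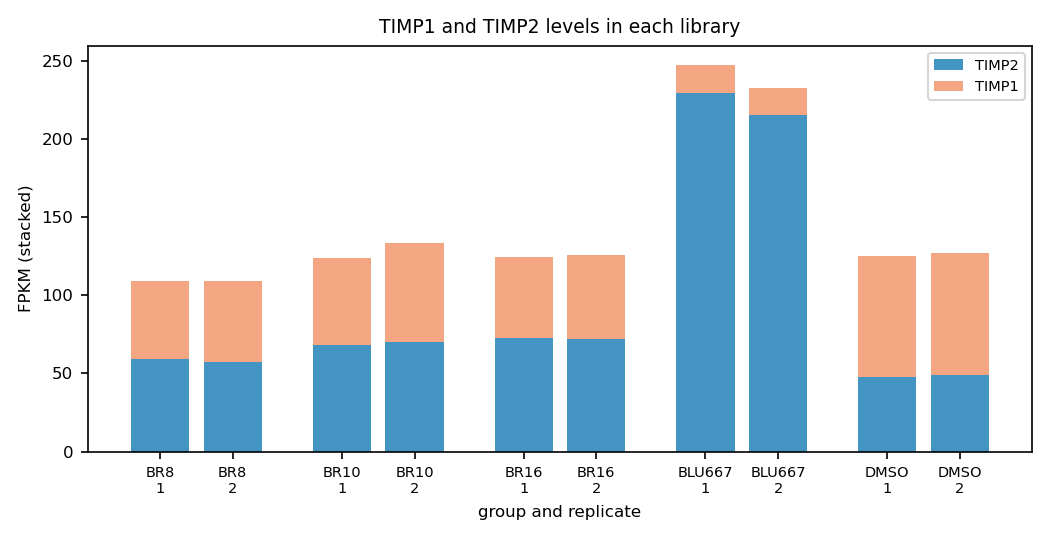
FPKM of TIMP2 (lower bar) and TIMP1 (upper bar) stacked for each library, from 0, grouped as BR8, BR10, BR16, BLU667 and DMSO with replicates 1 and 2. TIMP2 makes up 92.7% of both BLU667 bars and 38.4% of both DMSO bars, with the 6 colony bars between.

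The adapted colonies did not share the DMSO pattern in all members. Of the 7 tested, F3 and TIMP2 were higher than in DMSO, MMP14 and TIMP1 were lower, and PLAU, PLAUR and MMP2 were not called. Over all tested genes 22.9% were higher and 26.3% lower, and the median change was 0.17 for the 7 against -0.03 over all. When the 3 colony means were used as 3 replicates, so that the spread between colonies entered the error, none of the 7 was called, with adjusted p = 0.176 for F3, 0.178 for MMP14, 0.150 for TIMP1 and 0.217 for TIMP2. In that fit 5.65% of all tested genes were called. Without BR16, PLAUR (0.27, adjusted p = 0.0381) and MMP2 also counted as higher and PLAU (-0.23, adjusted p = 0.0336) as lower. Against BLU667, all 7 differed: PLAU, PLAUR, F3 and TIMP1 were higher and MMP2, MMP14 and TIMP2 lower, where 32.4% of all tested genes were higher and 28.7% lower. With colony means as replicates, MMP14 lost that call (adjusted p = 0.0553), where 19.96% of all tested genes were called. BLU667 is shared by 2 of these comparisons and DMSO by 2, so their values for a gene are not independent.

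**Figure D3:**
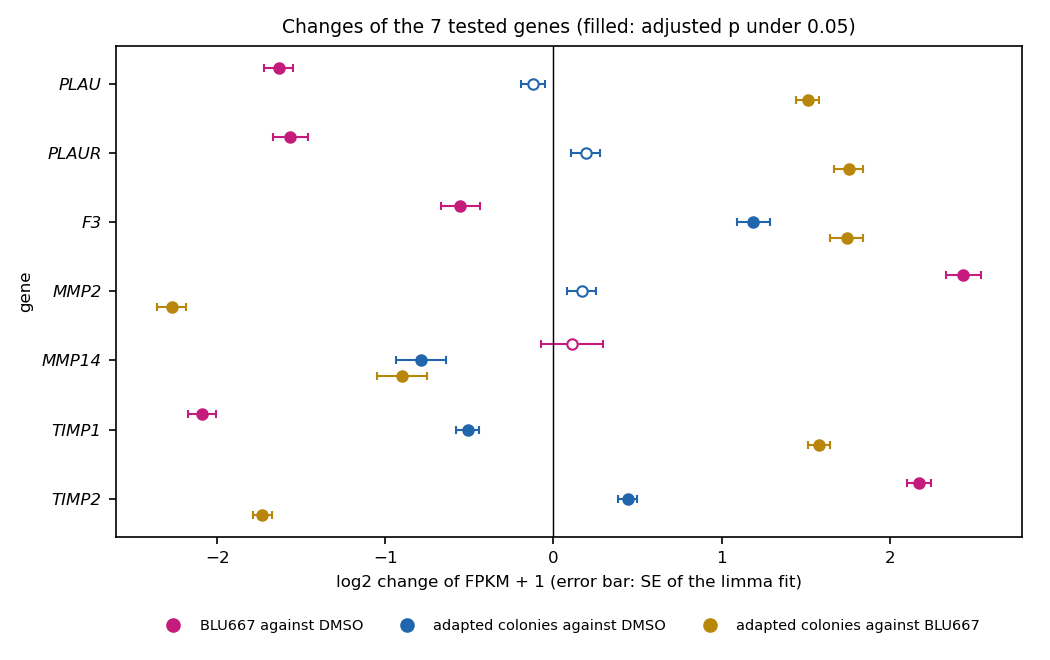
Change of the 7 tested genes on the log2(FPKM + 1) scale for 3 comparisons, with the limma SE as error bar and filled points for an adjusted p under 0.05. BLU667 against DMSO runs from -2.09 for TIMP1 to 2.44 for MMP2, while the adapted colonies against DMSO stay between -0.79 for MMP14 and 1.19 for F3.

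Colony by colony against DMSO, 5 of the 7 genes differed in BR8 (51.3% of all tested genes did), 6 in BR10 (40.8%) and 4 in BR16 (45.5%). F3, TIMP1 and TIMP2 were called with the same sign in each colony. TIMP1 changed by -0.60 in BR8 (adjusted p = 0.000508), -0.38 in BR10 (adjusted p = 0.00698) and -0.55 in BR16 (adjusted p = 0.000947), and TIMP2 by 0.26 (adjusted p = 0.0159), 0.50 (adjusted p = 0.000901) and 0.57 (adjusted p = 0.000328) in the same colonies. The TIMP2 call in BR8 was lost without BR8 replicate 1 (adjusted p = 0.0816), and the TIMP1 call in BR10 without BR10 replicate 1 (adjusted p = 0.0637). PLAUR in BR10 (0.31, adjusted p = 0.0486) was lost without DMSO replicate 2 (0.19, adjusted p = 0.184) and under most other alternatives. Against BLU667, all 7 differed in each colony, where 57.4% of all tested genes did for BR8, 53.6% for BR10 and 58.7% for BR16. MMP14 in BR16 (-0.51, adjusted p = 0.0386) was lost without BLU667 replicate 2 (-0.37, adjusted p = 0.205) and without either BR8 or either BR16 replicate (adjusted p up to 0.129).

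The colonies also differed from one another. Over the 3 colonies, 5 of the 7 genes differed by limma's F test, against 58.1% of all tested genes: MMP2 (adjusted p = 0.000121), F3 (0.000141), PLAU (0.00295), TIMP2 (0.0123) and MMP14 (0.0237). PLAUR (0.110) and TIMP1 (0.101) were not called. Between BR8 and BR10, 4 genes differed (22.8% of all tested genes), 5 between BR8 and BR16 (48.6%), and 2 for BR10 against BR16 (43.1%). F3 was higher in BR8 than in BR10 by 1.54 (adjusted p = 9.65e-05) and than in BR16 by 0.99 (adjusted p = 0.000634). MMP2 was higher in BR10 than in BR16 by 1.44 (adjusted p = 8.81e-05) and lower in BR8 than in BR10 by -0.69 (adjusted p = 0.00239). PLAU was lower in BR8 than in BR10 (-0.43, adjusted p = 0.00915) and than in BR16 (-0.53, adjusted p = 0.00208). The first of these was lost without BR8 replicate 2 (adjusted p = 0.0523) or BR10 replicate 2 (adjusted p = 0.0813). TIMP2 in BR8 against BR10 (-0.25, adjusted p = 0.0369) was lost without any 1 of the 6 colony libraries (adjusted p = 0.0815 to 0.184) and with each library's GC trend removed (adjusted p = 0.0530). So without BR8 replicate 2 or BR10 replicate 2 the BR8 and BR10 count was 2 in place of 4. F3 in BR10 against BR16 (-0.54, adjusted p = 0.00745) was lost without BR10 replicate 1 (adjusted p = 0.0593) or BR16 replicate 1 (adjusted p = 0.0580).

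Between BR8 and BR16, MMP14 (-0.73, adjusted p = 0.0119) and TIMP2 (-0.31, adjusted p = 0.00783) were also lower in BR8. These 2 calls moved with the libraries and with GC content: with each library's GC trend removed, MMP14 was -0.30 (adjusted p = 0.115) and TIMP2 -0.19 (adjusted p = 0.0736), and by the F test both were lost (adjusted p = 0.177 and 0.0605) while PLAUR (0.00232) and TIMP1 (0.00687) were gained. Over single libraries left out, the F test called 3 to 5 genes. MMP14 was lost without either BR8 or either BR16 replicate, and TIMP2 without BR8 replicate 2 or either BR16 replicate.

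**Figure D4:**
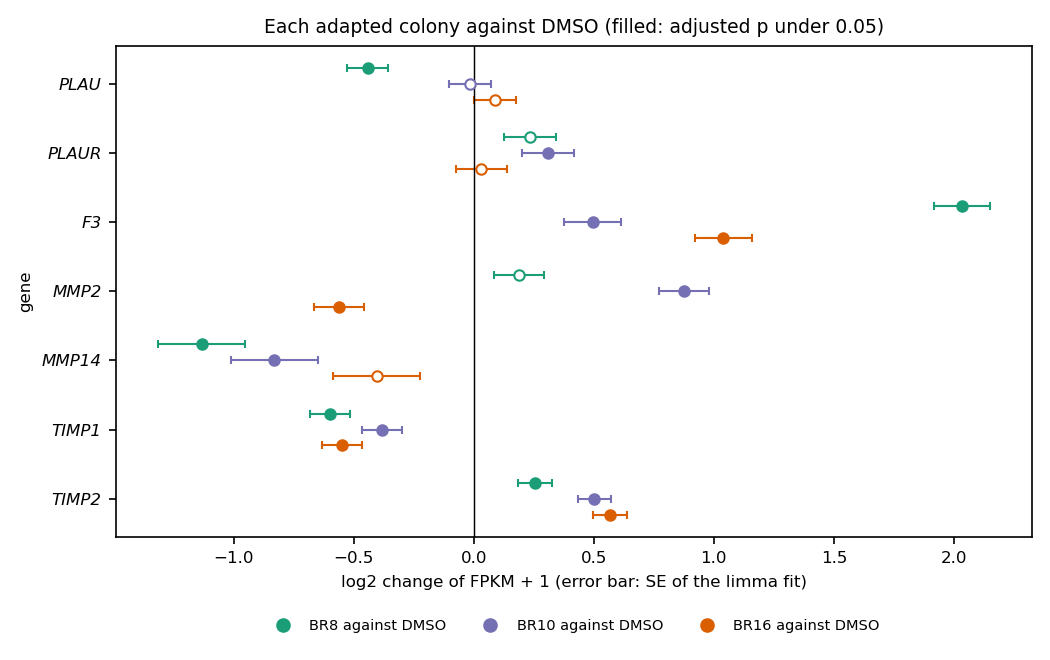
Change of the 7 tested genes in each colony against DMSO on the log2(FPKM + 1) scale, with the limma SE as error bar and filled points for an adjusted p under 0.05. F3 runs from 0.50 in BR10 to 2.03 in BR8, and MMP2 from -0.56 in BR16 to 0.88 in BR10.

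Of 16 other genes of the plasmin system, 9 were tested. In BLU667 against DMSO 4 were higher, 3 lower and 2 not called, with a median change of 0.30, against 29.0% higher, 31.2% lower and a median of -0.01 over all tested genes. In the adapted colonies against DMSO 4 were higher and 1 lower (median 0.31; over all tested genes 22.9%, 26.3% and -0.03), and against BLU667 4 were higher and 2 lower (median 0.26; over all 32.4%, 28.7% and 0.03). SERPINF2, which encodes the plasmin inhibitor alpha-2-antiplasmin, was 35.6 and 47.7 FPKM in BLU667 and at most 0.504 in the other 8 libraries, so its change was 5.09 against DMSO and -4.97 in the colonies against BLU667. SERPINE2, which encodes protease nexin, an inhibitor of urokinase and thrombin, averaged 9.70 FPKM in the colonies and 3.87 FPKM in DMSO (1.12 ± 0.11, adjusted p = 7.30e-05). SERPINE2 averaged 9.79 FPKM in BLU667, also higher than in DMSO (1.14 ± 0.13, adjusted p = 0.000133). Its colony mean was not called against BLU667 (-0.01, adjusted p = 0.923). LRP1, a clearance receptor for protease complexes, was 38.5 FPKM in BLU667 and 12.03 FPKM in DMSO on average (1.61). The substrate gene PLG had 0 FPKM in every library.

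Of 30 other metalloproteases and regulators, 18 were tested, and in BLU667 against DMSO 11 were higher and 5 lower (median 0.40; over all tested genes 29.0% higher, 31.2% lower and -0.01). In the adapted colonies against DMSO 8 were higher and 5 lower (median 0.17; over all 22.9%, 26.3% and -0.03), and against BLU667 6 were higher and 7 lower (median -0.03; over all 32.4%, 28.7% and 0.03). ADAMTS1, a secreted protease that cuts proteoglycans, averaged 36.0 FPKM in BR8, 13.1 in BR10, 39.0 in BR16, 13.2 in BLU667 and 5.35 in DMSO. ADAM19, a membrane protease, averaged 2.00 FPKM in the colonies, 7.78 in BLU667 and 13.3 in DMSO. FURIN, which activates MMP14, was lower in BLU667 than in DMSO (-1.16 ± 0.15, adjusted p = 0.000237). FURIN was also lower in the colonies than in DMSO (-0.99 ± 0.12, adjusted p = 0.000290). Its colony mean was not called against BLU667 (0.17, adjusted p = 0.264). Matrilysin, MMP7, had 0 reads in both DMSO libraries, 3.40 and 3.58 FPKM in BR8, 0.346 and 0.474 in BR10, 3.05 and 3.25 in BR16 and 0.563 and 0.718 in BLU667. Its adapted mean was 62.5-fold a floor of 3 reads over the DMSO group. That mean joined 92.9-fold in BR8, 10.9-fold in BR10 and 83.8-fold in BR16, and BLU667 was 17.0-fold the floor.

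Around tissue factor, 8 of 15 clotting initiation and thrombin receptor genes were tested. In BLU667 against DMSO 5 were higher and 3 lower (median 0.85; over all tested genes 29.0% higher, 31.2% lower and -0.01). In the adapted colonies against DMSO 4 were higher and 2 lower (median 0.30; over all 22.9%, 26.3% and -0.03), and against BLU667 1 was higher and 4 lower (median -0.49; over all 32.4%, 28.7% and 0.03). F2RL1, the receptor PAR2 that factor VIIa with tissue factor can activate, was 17.2 and 17.0 FPKM in BR8, 12.8 and 10.9 in BR10, 12.6 and 11.3 in BR16, 21.1 and 27.6 in BLU667 and 0.766 and 1.07 in DMSO. It rose by 3.72 ± 0.14 in BLU667 (adjusted p = 2.93e-07) and 2.92 ± 0.12 in the colonies (adjusted p = 6.34e-07). TFPI, the inhibitor of tissue factor with factor VIIa, averaged 10.6 FPKM in the colonies, 26.2 in BLU667 and 12.2 in DMSO. THBD, the thrombin-binding anticoagulant receptor thrombomodulin, averaged 0.0546 FPKM in the colonies, 0.0209 in BLU667 and 1.78 in DMSO. F7 was at most 0.0303 FPKM in any library.

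Of 15 AP-1 and ETS factor genes, 13 were tested. In BLU667 against DMSO 4 were higher and 8 lower (median -0.51; over all tested genes 29.0% higher, 31.2% lower and -0.01). In the adapted colonies against DMSO 4 were higher and 7 lower (median -0.96; over all 22.9%, 26.3% and -0.03), and against BLU667 7 were higher and 3 lower (median 0.34; over all 32.4%, 28.7% and 0.03). FOSL1, an AP-1 subunit, was 18.0 and 16.4 FPKM in BR8, 37.0 and 44.6 in BR10, 52.6 and 50.3 in BR16, 5.93 and 2.74 in BLU667 and 220.8 and 169.8 in DMSO. Every colony library lay between both parental groups, with changes of -5.26 in BLU667 and -2.51 in the colonies against DMSO. ETV5, an ETS factor, averaged 4.92 FPKM in the colonies, 0.197 in BLU667 and 20.7 in DMSO. FOSL2, another AP-1 subunit, averaged 95.8 FPKM in the colonies, 79.1 in BLU667 and 27.0 in DMSO. It was higher than DMSO in the colonies (1.74 ± 0.09, adjusted p = 2.01e-06) and in BLU667 (1.52 ± 0.11, adjusted p = 7.76e-06). Its colony mean was not called against BLU667 (0.22, adjusted p = 0.0584).

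**Figure D5:**
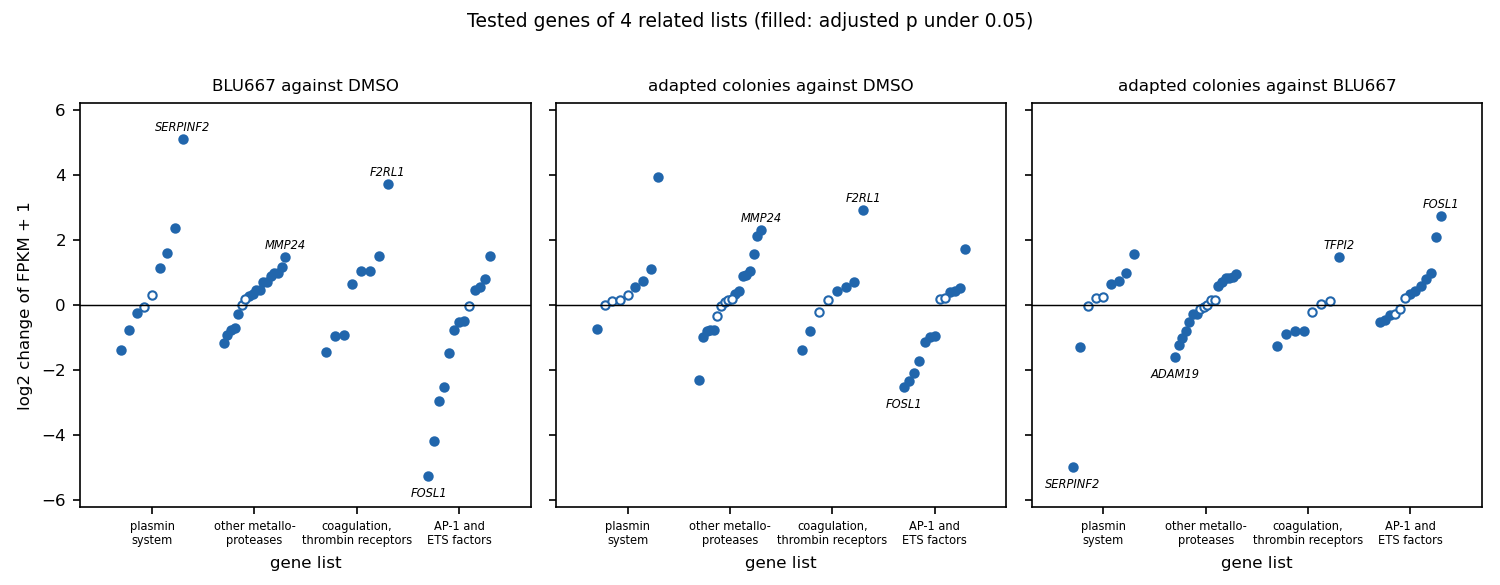
Change of the tested genes of 4 related lists on the log2(FPKM + 1) scale in 3 comparisons, ordered by size within each list and filled for an adjusted p under 0.05, with some of the most changed genes named. SERPINF2 reaches 5.09 and FOSL1 -5.26 in BLU667 against DMSO.

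The genes most like PLAU, F3 and MMP2 were ranked by Pearson's r of log2(FPKM + 1) over the 10 libraries in 5 groups among 6752 protein-coding genes with a mean of at least 5 FPKM. For PLAU they were CAMK2G (r = 0.985), FUBP3 (0.982) and TMEM164 (0.982). For F3 they included P4HA2 (0.989) and NAAA (0.980), and P4HA2 averaged 12.7 FPKM in BR8, 5.60 in BR10, 7.72 in BR16, 3.23 in BLU667 and 4.13 in DMSO. For MMP2 they were CYBRD1 (0.990), PKD2 (0.989) and POGZ (0.986). The ranking was chosen by these same values and the libraries of a group are not independent, so r describes these 10 libraries only.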

How the data were processed

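The authors' deposited values are FPKM per gene for 10 libraries. Per the labels' protocols, RNA was isolated by Direct-zol kit and TRI reagent, treated with GlobinClear and made into non-directional NEB libraries. Per the submitters' processing notes, the tools were CASAVA, STAR 2.5, HTSeq 0.6.1 and DESeq2 (version given as 2) on GRCh38, with an annotation release not given in the sources used here. Values multiplied by gene length came out as whole reads in 100% of cases (tolerance 0.05). Genes of at least 1 FPKM in at least 2 libraries (13927) were fitted in 1 model of 5 groups with 5 residual degrees of freedom in limma 3.58.1 (R 4.3.3, variance trend) on log2(FPKM + 1), which understates changes of low genes. Calls are two-sided, with Benjamini-Hochberg adjusted p under 0.05. Adapted colonies are the mean of 3 colony means, so their SE reflects libraries, not colonies. The code was tested on simulated data. Named list genes were among the 4 most changed called genes of a list and comparison, or absent partners. Members and lists were chosen with earlier results of these data known. Positions and overlaps came from the deposited table and transcript GC from GENCODE 29. Alternatives changed the pseudocount, filter, scaling, variance model, GC trend, count model and libraries. Some items are not reported here.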

Additional observations from a re-analysis of the deposited data

Results flagged for a closer look

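In 5 of the 7 tested genes the change against DMSO differed between colonies by a test of the difference itself, limma's F test, as in 58.1% of all tested genes. The largest pairwise differences on the log2(FPKM + 1) scale were -0.53 for PLAU in BR8 against BR16, 1.54 for F3 in BR8 against BR10, 1.44 for MMP2 in BR10 against BR16, -0.73 for MMP14 in BR8 against BR16 and -0.31 for TIMP2 in BR8 against BR16. The MMP14 and TIMP2 differences were not called once the GC trend of each library was removed. No group held enough libraries for a test of single outlying libraries.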

How the results depend on the processing

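Over 24 alternatives, 10 of them leaving out 1 library, the 3 main comparisons gave 490 gene values, of which 475 kept direction and call, 5 lost the call, 8 gained one and 2 changed sign. Both sign changes were MMP14 in BLU667 against DMSO (-0.17 without DMSO replicate 2 and -0.03 without BLU667 replicate 2), and it was called at 0.39 without DMSO replicate 1. In the adapted colonies against DMSO, the number higher was 4 with quantile normalization, 4 without BR16 and 0 with colony means as 3 replicates, where the number lower was also 0. The cause of the first was not tested. Of all tested genes, 47.4% were called in either direction with quantile normalization, 50.7% without BR16 and 5.65% with colony means. Leaving out 1 library gave 3 to 5 genes differing among the colonies. No alternative moved the median of all genes by over 0.1. Fitting only the groups compared ended the BR10 against DMSO calls of F3 (adjusted p = 0.0526), MMP14 (0.0659), TIMP1 (0.0635) and PLAUR (0.158) and the BR8 call of TIMP2 (0.0999). With a replicate block the main counts were 2 higher and 4 lower in BLU667 against DMSO, 2 and 2 in the colonies against DMSO, 4 and 3 against BLU667 and 5 among the colonies. In that fit 58.5% of all tested genes were called in BLU667 against DMSO, 46.7% in the colonies against DMSO and 59.3% against BLU667. Over all comparisons the block ended 3 member calls and added 0. Same-numbered libraries did not deviate together over the 10 pairs of groups (correlation -0.16 to 0.11), so the numbers only name libraries. With 2 libraries a group, precision is limited. PLAT rests on few reads in every library (7 to 84), and F3 does in the parental libraries (31 to 80). The colony libraries held 106 to 458 reads of F3.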
